A study of Mus musculus with 12 samples.

Results

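The MHC class II genes were chosen by name from a list of 10: the classical chain genes H2-Aa, H2-Ab1 and H2-Eb1, the related H2-Eb2, the peptide exchange factor genes H2-DMa and H2-DMb1, their inhibitor genes H2-Oa and H2-Ob, the invariant chain gene Cd74 and the coactivator gene Ciita. Of the 10, 9 had a transcript cluster of their own on the array, among 22180 genes that did. The brightest such cluster stood for each gene. Cd74 was measured only by a cluster that the array annotation gives to both Cd74 and Mir5107, a microRNA gene that lies inside Cd74, so this cluster is described beside the 9 and not counted with them. The tissue was crypt-enriched material cut by laser microdissection from the proximal small intestine, and each mouse gave 1 Affymetrix Gene 2.0 ST array. There were 6 Zfp148gt/+APCMin/+ mice (783, 891, 892, 893, 897 and 911), called Zfp148gt/+ mice here, and 6 Zfp148+/+APCMin/+ mice (782, 885, 888, 889, 895 and 899), called APCMin/+ controls. All were 12 weeks old, untreated and on a mixed genetic background, and all carried APCMin/+, a truncating Apc allele that causes intestinal adenomas. The gt allele is a gene trap in Zfp148, which encodes a zinc finger transcription factor, and 1 copy of Zfp148 remained intact. No mouse was wild type at Apc. The trap is carried in every cell, so crypt epithelium and the leukocytes around it had the same genotype. The comparison asked whether loss of 1 Zfp148 copy changed transcript levels in crypts of APCMin/+ mice.

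MHC class II molecules are pairs of an alpha and a beta chain that show peptides from engulfed material to CD4+ T cells. Dendritic cells, macrophages and B cells make them constitutively, and interferon gamma induces them in other cells, the epithelium of the small intestine included. In the endoplasmic reticulum the invariant chain (Cd74) fills the peptide groove, endosomal proteases such as cathepsin S trim it, and DM then exchanges the remaining fragment for antigenic peptide, which DO holds back. Ciita binds no DNA itself: it is recruited to the X and Y boxes of class II promoters by the RFX complex, Creb1 and NF-Y. Mice of the H2 haplotype b, such as C57BL/6, have a defective H2-Ea gene and show no E molecule at the cell surface, although H2-Eb1 is transcribed.

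The promoters are shown because class II genes are known to share this layout, and their signal across mice is compared further on. RefSeq promoter windows (GRCm38.p6, 250 bases before to 50 after the start) were found for 7 of the 10 genes. On chromosome 17 the 6 windows below each hold 60 bases around the Y box, written 5′ to 3′ on the strand of the gene, which is the plus strand except for H2-Aa. Capitals mark the Y box (ATTGG), the X box (GTAACTGATG or GCAACTGATG here, found with a consensus that leaves 3 of its 10 bases free) and, in H2-Aa, an X2 box (TGACGTCA) that was added to the search after the sequences were seen.
H2-Oa, chr17:34092291-34092350: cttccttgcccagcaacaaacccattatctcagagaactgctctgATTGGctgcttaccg
H2-DMb1, chr17:34153085-34153144: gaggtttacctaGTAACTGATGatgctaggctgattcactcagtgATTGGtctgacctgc
H2-Ob, chr17:34238803-34238862: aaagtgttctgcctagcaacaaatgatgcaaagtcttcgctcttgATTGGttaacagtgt
H2-Aa, chr17:34287857-34287916: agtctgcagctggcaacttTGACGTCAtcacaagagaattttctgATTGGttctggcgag
H2-Eb1, chr17:34305763-34305822: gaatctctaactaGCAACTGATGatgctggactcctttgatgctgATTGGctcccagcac
H2-Eb2, chr17:34325530-34325589: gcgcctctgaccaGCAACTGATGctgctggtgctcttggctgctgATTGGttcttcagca
Both strands were searched, and none of the marked motifs overlap. The Y box was found in 7 of the 8 member windows (H2-DMa has 2), against 37.4% of all 32851 windows in the table. The X box was in 4 of 8, against 2.97% of all windows. In H2-Oa it was GTGACAGATG at -140 from the start, outside the 60 bases shown. Only exact matches to the consensus were counted, so a window without one may still hold a variant of the box. An X box followed within 45 bases by a Y box on the strand of the gene was in 3 of 8 (H2-DMb1, H2-Eb1 and H2-Eb2), an arrangement found in 24 windows, or 0.0731%, of the whole table. In those 3 windows 23 bases (H2-DMb1) or 22 bases (H2-Eb1 and H2-Eb2) lay between the boxes. The Y box began 43 bases before the annotated start in H2-Oa, 61 in H2-DMb1, 57 in H2-Ob, 48 in H2-Aa, 59 in H2-Eb1 and 100 in H2-Eb2. A GAS element (TTCNNNGAA), the interferon gamma activated site, was in 0 of the 8 windows and in 8.30% of all windows. The X2 letters were in 1 of 8 windows and in 1.79% of all. Such a match is a description of letters, and binding was not measured.

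Zfp148 itself was at 5.45 ± 0.37 in Zfp148gt/+ mice and at 6.34 ± 0.31 in APCMin/+ controls (log2 signal, SD, n = 6 each), with no overlap between the genotypes. The authors normalized the arrays by RMA, and the deposited values, from 0.85 to 13.24, were read as log2, so that 1 unit is a 2-fold difference. The median of all transcript clusters was 2.71, and probes of different genes differ in brightness, so levels are compared between mice and not between genes. The epithelial markers Epcam and Vil1 and the crypt stem cell marker Lgr5 were above that median, with medians of 10.24, 9.28 and 6.36 in Zfp148gt/+ mice and of 10.35, 9.32 and 6.53 in controls. The leukocyte markers Csf1r, Cd79a, Cd3e and Itgax had medians of 4.72, 5.21, 4.76 and 2.69 in Zfp148gt/+ mice and of 4.87, 4.62, 4.68 and 3.05 in controls. The villus gene Apoa4 had a median of 4.67 in Zfp148gt/+ mice and 4.80 in controls. Other villus genes were brighter, with medians in Zfp148gt/+ mice and controls of 10.64 and 10.54 for Fabp2 and of 9.35 and 9.52 for Krt20. Some were dimmer, such as Nt5e at 2.56 in Zfp148gt/+ mice and 2.28 in controls. The amount of villus tissue in the samples cannot be read from these levels. Xist, expressed from the inactive X chromosome, was high in 2 mice of each genotype. In such bulk tissue, fewer cells of a type and less RNA per cell cannot be told apart.

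Of the 9 class II genes, 8 were on average lower and 1 was higher in Zfp148gt/+ mice than in controls, but none of the differences passed the test. None passed limma's test at an adjusted p under 0.05, and none of all 33793 clusters did (0.0%; the smallest adjusted p was 0.625). By the methods' t-test, which their general statistics name for gene expression beside limma for the arrays, 0 clusters passed after the same adjustment. At an unadjusted limma p under 0.05 there were 0 of the 9, against 6.76% of all clusters in either direction (3.88% higher and 2.88% lower in Zfp148gt/+ mice). The genotypes overlapped for every class II gene, while they did not overlap for 0.308% of all clusters (0.225% higher and 0.0829% lower in Zfp148gt/+ mice). The median log2 fold change of the 9 genes, Zfp148gt/+ minus control, was -0.13, against 0.02 over all clusters and -0.04 over the clusters brighter than the median. A lower mean in Zfp148gt/+ mice was found for 45.2% of all clusters, but for 58.4% of the 16896 clusters brighter than the median, where 6 of the 9 genes lie. Among those brighter clusters the unadjusted threshold of 0.05 was passed by 2.41% in the higher and 5.08% in the lower direction. The direction of the 9 genes is not independent evidence from 9 measurements, since the genes varied together across mice.

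**Figure D1:**
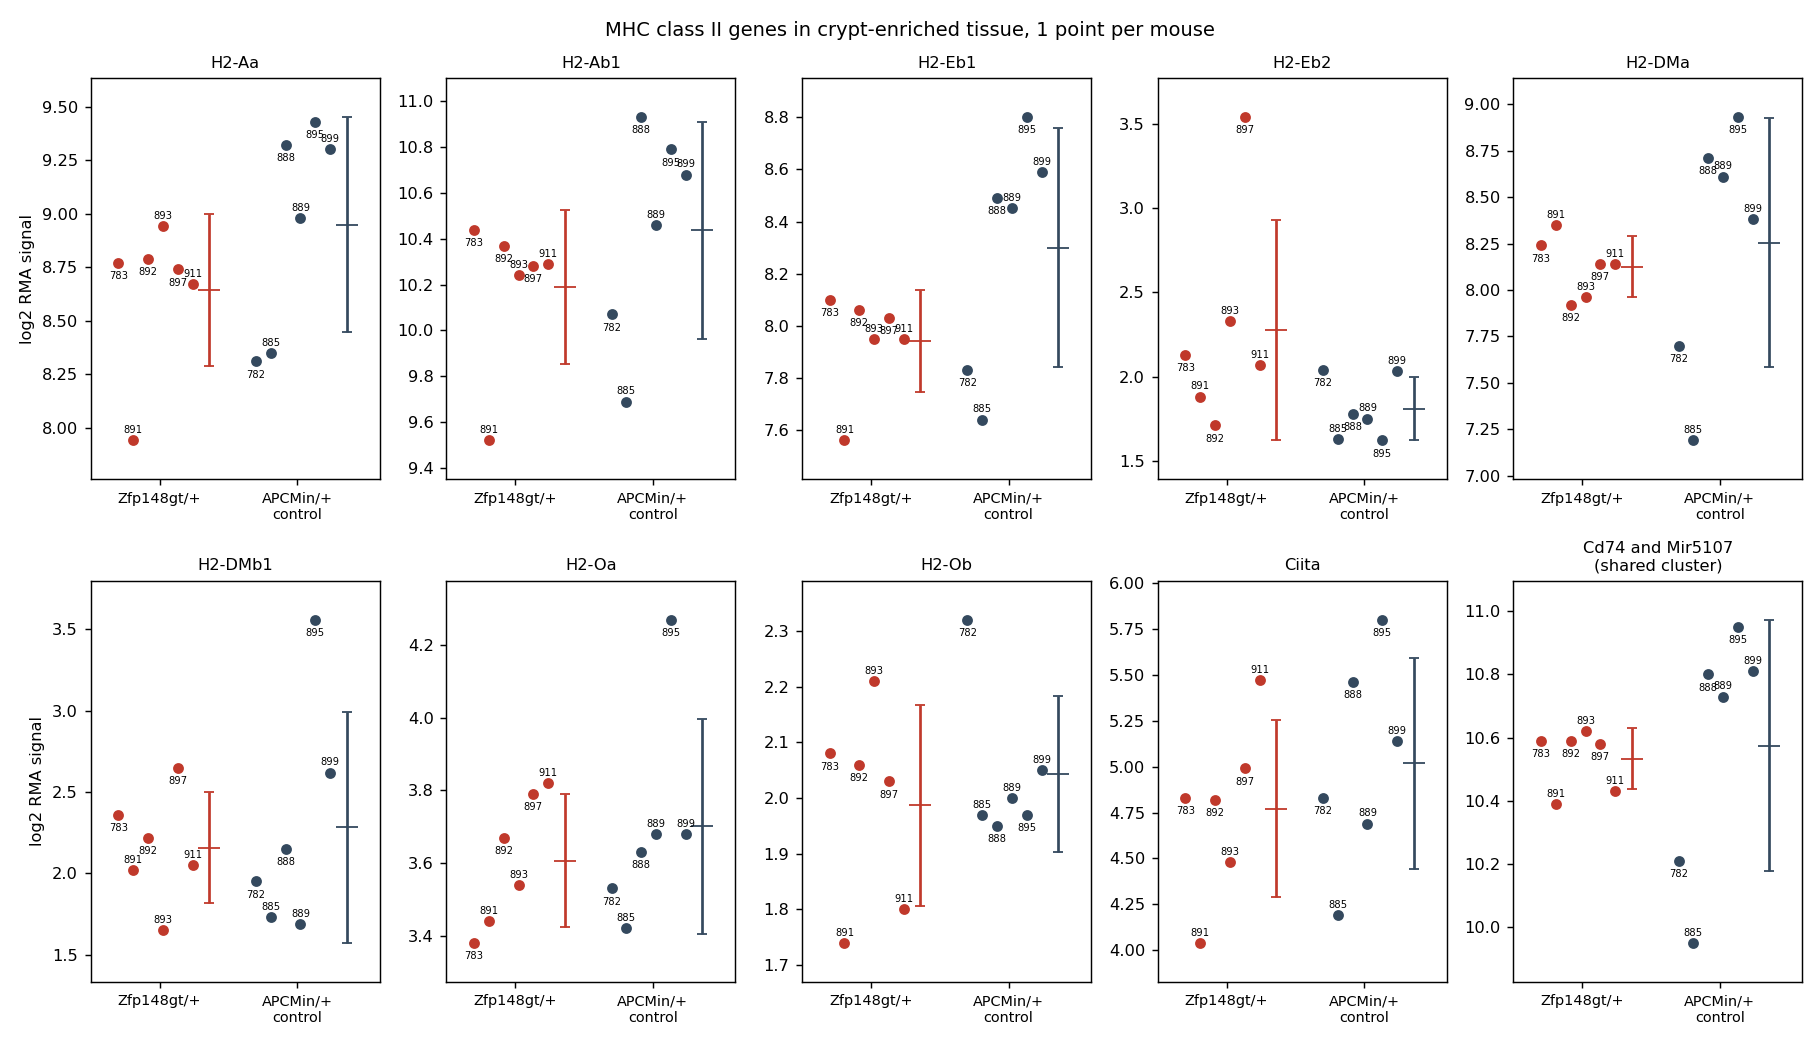
Log2 RMA signal of the 9 class II genes and of the cluster shared by Cd74 and Mir5107, 1 panel per gene with its own axis that does not start at 0. Points are single mice with their numbers, Zfp148gt/+ in red and APCMin/+ controls in blue, and the bars beside them are the mean ± SD (n = 6 each). For H2-Aa, H2-Ab1, H2-Eb1, H2-DMa and the shared cluster, controls 888, 889, 895 and 899 lie above every Zfp148gt/+ mouse and controls 782 and 885 lie low.

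The classical chains H2-Aa, H2-Ab1 and H2-Eb1, which form the A molecule and the beta chain of the E molecule, had the pattern of 1 low Zfp148gt/+ mouse and 2 low controls. H2-Aa was at 7.94 (mouse 891), 8.75 and 8.94 in Zfp148gt/+ mice and at 8.31, 9.14 and 9.43 in controls (lowest, median and highest log2 signal). The 4 controls 888, 889, 895 and 899 were above all 6 Zfp148gt/+ mice and controls 782 and 885 were below 5 of them. The log2 fold change of H2-Aa was -0.31 (95% confidence interval -0.80 to 0.18), a ratio of 0.808 of Zfp148gt/+ mice to controls, with an exact permutation p of 0.245 (two-sided, n = 6 and 6) and a limma adjusted p of 0.80. H2-Ab1 was at 9.52 (again mouse 891), 10.29 and 10.44 in Zfp148gt/+ mice and at 9.69, 10.57 and 10.93 in controls. Its log2 fold change was -0.24 (-0.71 to 0.22, exact permutation p = 0.329). The same 4 controls were the highest of the 12 mice, and 891 and control 885 were the lowest. Without mouse 891 the log2 fold change was -0.17 for H2-Aa and -0.11 for H2-Ab1, and for H2-Ab1 it was -0.15 without control 888 and -0.39 without control 885. H2-Eb1 was at 7.56 (mouse 891), 7.99 and 8.10 in Zfp148gt/+ mice and at 7.64, 8.47 and 8.80 in controls. With a log2 fold change of -0.36 (-0.76 to 0.05), or 0.780 of the control level (0.589 to 1.03), H2-Eb1 had the smallest p of the class II genes that were lower, an exact permutation p of 0.113 and a limma adjusted p of 0.744. The 5 other Zfp148gt/+ mice lay within 7.95 to 8.10, between the 2 low and the 4 high controls.

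H2-Eb2, a beta chain gene next to H2-Eb1, was the 1 class II gene with a higher mean in Zfp148gt/+ mice. It was at 1.71, 2.10 and 3.54 in Zfp148gt/+ mice and at 1.62, 1.76 and 2.04 in controls, below the median of all clusters in every mouse but 897. The log2 fold change was 0.47 (-0.07 to 1.01), with an exact permutation p of 0.0671 and a limma adjusted p of 0.750. Without mouse 897 the log2 fold change was 0.21. H2-Ea, the neighbouring alpha chain gene that is annotated as a pseudogene, was at 2.14 ± 0.15 in Zfp148gt/+ mice and 2.05 ± 0.13 in controls (SD, n = 6 each).

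The DM genes showed no shift between the genotypes that passed, but H2-DMa spread more widely in controls. H2-DMa encodes the alpha chain of the peptide exchange factor. It was at 7.92, 8.14 and 8.35 in Zfp148gt/+ mice and at 7.19, 8.49 and 8.93 in controls, so that the 6 Zfp148gt/+ mice spanned 0.43 and the controls 1.74 on the log2 scale. Every Zfp148gt/+ mouse lay above controls 782 and 885 and below controls 888, 889, 895 and 899. The means were close, with a log2 fold change of -0.13 (-0.68 to 0.42, exact permutation p = 0.667), which was 0.01 without control 895 and -0.34 without control 885. H2-DMb1, a beta chain gene of DM, was at 1.65, 2.13 and 2.65 in Zfp148gt/+ mice and at 1.69, 2.05 and 3.56 in controls, and the highest of the 12 values was that of control 895. In every mouse but 895 it was below the median of all clusters. Its log2 fold change was -0.13 (-0.75 to 0.49, exact permutation p = 0.749), and 0.13 without control 895. Signals of H2-DMb1 and its near copy H2-DMb2 may not be separable on an array. H2-DMb2, also a DM beta chain gene, was at 3.96 ± 1.18 in Zfp148gt/+ mice and 3.92 ± 0.90 in controls (SD, n = 6 each).

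The DO genes, whose products bind DM and restrain it, lay close together in both genotypes apart from single mice. H2-Oa was at 3.38, 3.60 and 3.82 in Zfp148gt/+ mice and at 3.42, 3.66 and 4.27 in controls, where 4.27 was control 895 and the 5 other controls reached 3.68. Its log2 fold change was -0.10 (-0.40 to 0.20, exact permutation p = 0.580), and 0.02 without control 895. A second cluster, shared by H2-Oa and BC051537, had a log2 fold change of -0.07. H2-Ob, which is known mainly from B cells and dendritic cells, was at 1.74, 2.05 and 2.21 in Zfp148gt/+ mice and at 1.95, 1.99 and 2.32 in controls, all under the median of all clusters. Its log2 fold change was -0.06 (-0.28 to 0.16, exact permutation p = 0.561), the smallest difference among the 9.

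Ciita, the coactivator on which class II transcription depends, was at 4.04 (mouse 891), 4.82 and 5.47 in Zfp148gt/+ mice and at 4.19 (mouse 885), 4.99 and 5.80 in controls. The mice with the lowest Ciita in each genotype were also those with the lowest H2-Ab1 and H2-Eb1, and control 895 was highest for Ciita, H2-Aa and H2-Eb1. The log2 fold change of Ciita was -0.25 (-0.84 to 0.35), with an exact permutation p of 0.403 and a limma adjusted p of 0.868. The interquartile range of the signal on an array was 2.69 to 2.93 in Zfp148gt/+ mice and 2.80 to 3.0 in controls. With that range as a covariate the log2 fold change of Ciita was 0.26. Without mouse 891 it was -0.10 and without mouse 911 -0.39, while without controls 888, 895 and 885 it was -0.16, -0.09 and -0.41.

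The cluster shared by Cd74 and Mir5107 was at 10.39, 10.58 and 10.62 in Zfp148gt/+ mice and at 9.95, 10.76 and 10.95 in controls. All 6 Zfp148gt/+ mice lay within 0.24 of each other on the log2 scale, while the controls spanned 0.99. As for H2-DMa, controls 888, 889, 895 and 899 were above and controls 782 and 885 below every Zfp148gt/+ mouse. The log2 fold change was -0.04 (-0.38 to 0.30), with an exact permutation p of 0.818. It was 0.00 without control 888, 0.03 without control 895, 0.01 without control 899 and -0.17 without control 885.

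**Figure D2:**
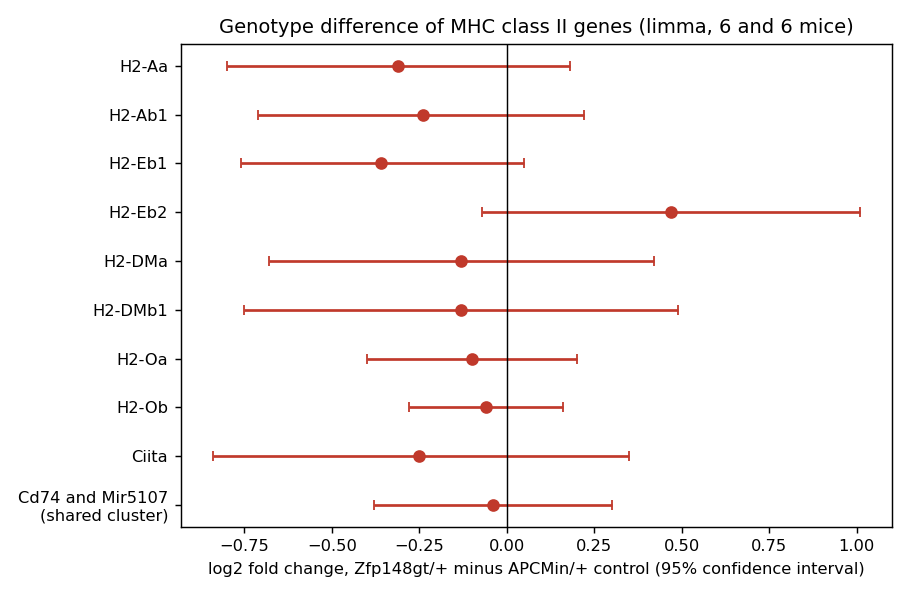
Log2 fold change of each class II gene and of the shared cluster, Zfp148gt/+ minus APCMin/+ control, with limma's 95% confidence interval (n = 6 and 6 mice). Points left of 0 are lower in Zfp148gt/+ mice, every interval includes 0, and H2-Eb2 at 0.47 is the 1 gene to the right of 0.

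The class II genes spread more widely in controls than in Zfp148gt/+ mice for 7 of the 9 (all but H2-Eb2 and H2-Ob), by range and by SD alike. A wider range in controls was found for 41.7% of all clusters. The SD of H2-DMa was 0.16 in Zfp148gt/+ mice and 0.67 in controls, that of H2-Eb1 was 0.19 in Zfp148gt/+ mice and 0.46 in controls, and that of H2-DMb1 was 0.34 in Zfp148gt/+ mice and 0.71 in controls. The shared cluster had an SD of 0.10 in Zfp148gt/+ mice and 0.40 in controls. A wider spread in controls was not particular to class II genes. The mean of the interferon gamma genes described below had an SD of 0.17 in Zfp148gt/+ mice and 0.27 in controls. Within that list the SD was 0.21 and 0.59 for Psmb9 and 0.24 and 0.50 for Irf1, but it was larger in Zfp148gt/+ mice for Ifngr1, Jak2 and Cd274. For Psmb9, controls 888, 889, 895 and 899 also lay above every Zfp148gt/+ mouse. The median SD within a genotype over all clusters was 0.243. Mouse 885 was among the 3 lowest of the 12 mice for 8 of the 9 genes and mouse 891 for 6, while mouse 895 was among the 3 highest for 7. Equality of the spread was not tested, and the 7 genes are not 7 separate observations of it.

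Across the 12 mice most of the brighter class II genes moved together. Of the 45 pairs among the 9 genes and the shared cluster, 16 passed at a Benjamini-Hochberg adjusted p under 0.05 (Pearson's r, permutation test with 100000 resamples), all of them positive, and 8 passed by Spearman's rho. The classical chains were the closest: r was 0.94 for H2-Aa with H2-Ab1 (rho 0.90), 0.94 for H2-Aa with H2-Eb1 (rho 0.94) and 0.92 for H2-Ab1 with H2-Eb1 (rho 0.96), with permutation p of 1e-05, 1e-05 and 2e-05, where 1e-05 is the smallest that the resamples can give. Their adjusted p were 0.000225, 0.000225 and 0.0003. After the 2 mice farthest from the median of the first gene were left out, r was still 0.90, 0.91 and 0.89. Within genotypes the 3 pairs had r of 0.91 to 0.99 in Zfp148gt/+ mice and 0.93 to 0.97 in controls. By exact permutation within the 6 Zfp148gt/+ mice, where 891 lay apart for all 3 genes, p was 0.113 for H2-Aa with H2-Ab1, 0.0958 for H2-Aa with H2-Eb1 and 0.00556 for H2-Ab1 with H2-Eb1. In the 6 controls the exact p were 0.00972, 0.00556 and 0.0125. H2-Aa and H2-Ab1 encode the 2 chains of one molecule and lie next to each other on chromosome 17, with H2-Eb1 beside them. All values of a mouse come from 1 array, so what an array shares is part of every r.

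The shared cluster of Cd74 followed H2-Eb1 (r 0.87, rho 0.93, permutation p = 0.00013, adjusted p = 0.00146) and H2-Aa (r 0.84, rho 0.97, permutation p = 0.00052, adjusted p = 0.0039). Its r with H2-DMa was 0.89 over the 12 mice (rho 0.76, permutation p = 0.00018, adjusted p = 0.00162), but -0.68 within Zfp148gt/+ mice (exact permutation p = 0.15, n = 6) and 0.98 within controls (exact permutation p = 0.00556, n = 6). Cd74 lies on chromosome 18, apart from the chain genes. Ciita, on chromosome 16, passed in 5 of its 9 pairs, with the highest r for H2-Ab1 (0.83, rho 0.69, permutation p = 0.00085, adjusted p = 0.00484) and H2-Oa (0.78, rho 0.71, permutation p = 0.0015, adjusted p = 0.0075). By rho, 0 pairs of Ciita passed. For Ciita with H2-Aa, r was 0.74, and 0.49 (permutation p = 0.15) without the 2 farthest mice, so this relation rests on those mice. The same held for H2-Eb1 with H2-Oa, H2-DMb1 with H2-Oa and H2-DMb1 with Ciita, and the other 12 of the 16 pairs kept an unadjusted p under 0.05. The dim genes H2-Eb2 and H2-Ob passed in 0 of their 17 pairs, with r of -0.32 to 0.19 over the 12 mice. H2-DMb1, also dim on average, did pass with H2-Oa (r 0.76) and with Ciita (r 0.68), the pairs named above as resting on the farthest mice. Without control 895 the number of passing pairs was 8, and without control 885 it was 10.

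**Figure D3:**
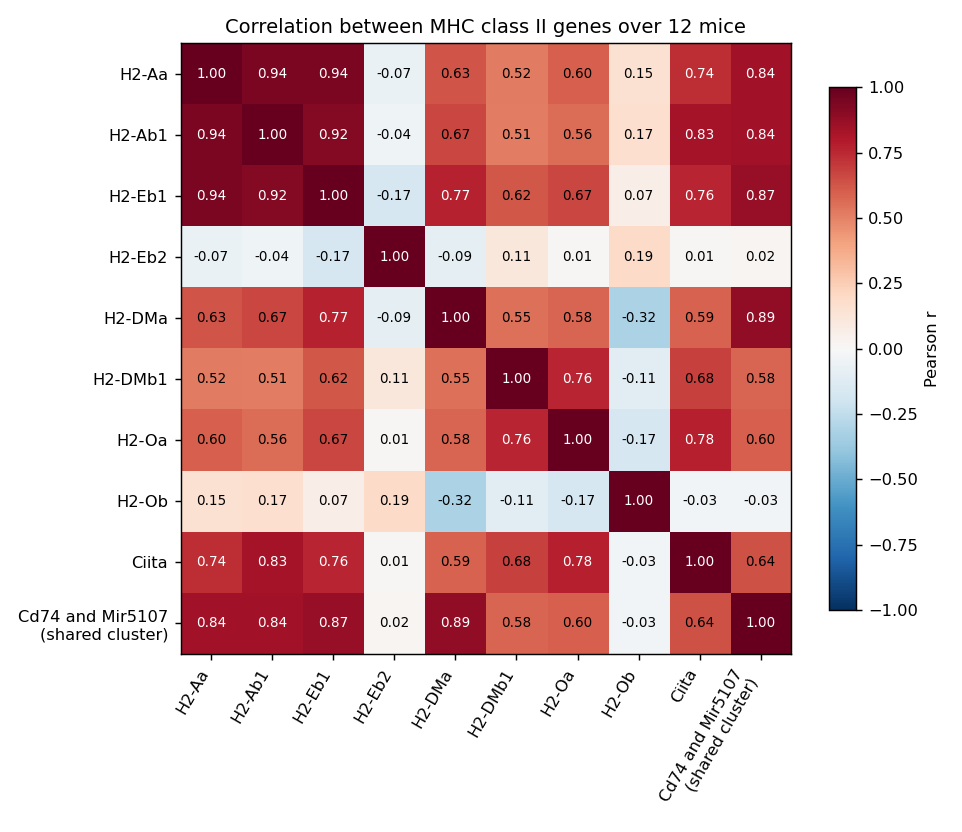
Pearson's r over 12 mice for each pair of the 9 class II genes and the cluster shared by Cd74 and Mir5107, with the value written in each cell and the diagonal at 1. H2-Aa, H2-Ab1 and H2-Eb1 form a block at 0.92 to 0.94, and the rows of H2-Eb2 and H2-Ob lie between -0.32 and 0.19.

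Within the genotypes these relations were not alike in size. Among H2-Aa, H2-Ab1, H2-Eb1, H2-DMa, Ciita and the shared cluster, r lay between -0.77 and 0.99 in the 6 Zfp148gt/+ mice and between 0.83 and 0.99 in the 6 controls for all 15 pairs. All negative values were those of pairs with H2-DMa. Its r with H2-Aa was 0.63 over the 12 mice (adjusted permutation p = 0.0653), -0.77 within Zfp148gt/+ mice (exact permutation p = 0.0319, n = 6) and 0.92 within controls (exact permutation p = 0.0208, n = 6). Mouse 891, lowest of the Zfp148gt/+ mice for H2-Aa, was the highest of them for H2-DMa. H2-Ob, which passed in no pair over all mice, had an r of 0.98 with the shared cluster within Zfp148gt/+ mice (exact permutation p = 0.00278, n = 6) and -0.39 within controls (exact permutation p = 0.44, n = 6). With H2-Aa its r was 0.82 within Zfp148gt/+ mice (exact permutation p = 0.00278, n = 6) and -0.57 within controls (exact permutation p = 0.19, n = 6). These pairs were singled out after their values were seen, their p are unadjusted, and the differences between the genotypes were not tested.

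The genes known to switch on class II transcription were also measured, from a list of 10 factors. On average 6 of them were higher and 4 lower in Zfp148gt/+ mice, 0 passed the adjusted test, and their median log2 fold change was 0.04. Nfyb, a subunit of the Y box factor NF-Y, was at 5.48, 5.76 and 6.18 in Zfp148gt/+ mice and at 5.95, 6.24 and 6.43 in controls, a log2 difference of -0.42 (-0.70 to -0.14, adjusted p by limma 0.725). Creb1, which binds the X2 box, was at 6.69, 7.14 and 7.38 in Zfp148gt/+ mice and at 6.38, 6.64 and 6.99 in controls, a log2 difference of 0.42 (0.13 to 0.70, adjusted p by limma 0.725). These 2 genes were past an unadjusted p of 0.05 in opposite directions, against 6.76% of all clusters in either direction. The RFX subunits Rfx5, Rfxap and Rfxank had log2 fold changes of 0.10, -0.17 and -0.14. Of 10 genes of class II peptide loading and turnover, 3 were higher and 7 lower, with a median of -0.04 and 0 that passed. Ctss, cathepsin S that trims the invariant chain, had a log2 fold change of -0.32 (-0.66 to 0.03), and Ctsl, another lysosomal protease, one of 0.49 (-0.12 to 1.10).

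Interferon gamma signaling and response genes had a lower mean in Zfp148gt/+ mice for 13 of the 16 measured genes of the 19 listed, with a median log2 fold change of -0.21. A lower mean was found for 45.2% of all clusters and for 58.4% of those brighter than the median. None of the list passed the adjusted test. In each direction 1 gene was past an unadjusted limma p of 0.05, against 6.76% of all clusters in either direction. Psmb8, an immunoproteasome subunit gene among the class II genes on chromosome 17, was at 5.88, 6.46 and 6.94 in Zfp148gt/+ mice and at 6.25, 7.19 and 7.68 in controls, a log2 difference of -0.57 (-1.10 to -0.04, adjusted p by limma 0.725). Ifng itself was dim, at 1.94, 2.16 and 2.34 in Zfp148gt/+ mice and at 1.64, 1.84 and 2.14 in controls, a log2 difference of 0.27 (0.05 to 0.50, adjusted p by limma 0.725). The mean of the list was 5.84 to 6.33 in Zfp148gt/+ mice and 6.02 to 6.68 in controls. It followed H2-Aa across the 12 mice with r = 0.92 (rho 0.88, permutation p = 5e-05, adjusted p = 0.0011 over 22 relations of list means), 0.87 without the 2 farthest mice, 0.82 within Zfp148gt/+ mice and 0.94 within controls. With the shared cluster of Cd74 its r was 0.78 (rho 0.83, permutation p = 0.0024, adjusted p = 0.0176). Psmb8, Psmb9 and Tap1 of this list are neighbours of the class II genes.

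Markers of macrophages and dendritic cells, cells that make class II constitutively, also followed H2-Aa. Of 19 listed markers, 18 were measured. On average 15 of these were lower and 3 higher in Zfp148gt/+ mice, where 45.2% of all and 58.4% of the brighter clusters were lower. The median log2 fold change of the markers was -0.19, and 0 passed. Their mean signal was 4.19 to 4.72 in Zfp148gt/+ mice and 4.42 to 4.80 in controls. Itgax, which encodes CD11c, was at 1.95, 2.69 and 2.95 in Zfp148gt/+ mice and at 2.45, 3.05 and 4.59 in controls (log2 fold change -0.61, -1.27 to 0.04), and the complement gene C1qb had a log2 fold change of -0.35 (-0.79 to 0.09). The mean of the markers had an r of 0.82 with H2-Aa over the 12 mice (rho 0.77, permutation p = 0.00107, adjusted p = 0.0118), 0.68 without the 2 farthest mice, 0.75 within Zfp148gt/+ mice and 0.85 within controls. Its r with the shared cluster of Cd74 was 0.54 (adjusted permutation p = 0.215). With this mean as a covariate beside genotype, the log2 fold change was 0.01 for each of H2-Aa, H2-Ab1, H2-DMb1 and H2-Oa, 0.03 for Ciita and 0.11 for the shared cluster, while it was -0.17 for H2-Eb1, -0.01 for H2-DMa, -0.04 for H2-Ob and 0.48 for H2-Eb2. The marker mean was itself lower in Zfp148gt/+ mice (4.44, against 4.61 in controls) and followed H2-Aa, so the fit cannot separate it from genotype. The part of these cells in the genotype values was not tested.

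None of the remaining lists had a relation with H2-Aa or the shared cluster that passed. B cell markers had a mean of 2.83 to 3.25 in Zfp148gt/+ mice and 2.81 to 3.14 in controls, with 5 of 8 higher, a median log2 fold change of 0.03 and an r of 0.07 with H2-Aa (adjusted permutation p = 0.847). Some of these markers were dim, with means in Zfp148gt/+ mice and controls of 2.12 and 2.17 for Ms4a1 and of 1.88 and 1.88 for Cr2. Others, such as Cd79a (5.13 and 4.74), were brighter. The r of the list mean therefore says little about B cells. The B cell genes of smallest p were Fcer2a at 0.24 and Cd79a at 0.40 (log2 fold change). T cell markers were 4 higher and 3 lower (Zap70 -0.21, Cd4 0.25), plasma cell markers 3 higher and 2 lower (Jchain 0.28, Sdc1 -0.25), and costimulation genes 3 higher and 2 lower (Cd83 0.23, Cd80 -0.08). Epithelial markers were lower for 8 of 8, by at most 0.14 on the log2 scale (Cdh1 -0.14, Cldn7 -0.10), against 58.4% of the brighter clusters. The mean of these markers had an r of -0.48 with H2-Aa over the 12 mice (adjusted permutation p = 0.261). Within Zfp148gt/+ mice this r was -0.70 (exact permutation p = 0.0514, n = 6) and within controls -0.81 (exact permutation p = 0.0542, n = 6). With the shared cluster of Cd74 the r of the epithelial mean was -0.47 over the 12 mice, -0.81 within Zfp148gt/+ mice and -0.75 within controls. With the epithelial mean as a covariate the log2 fold change was -0.49 for H2-Aa, -0.41 for H2-Ab1 and -0.48 for H2-Eb1. Villus enterocyte markers, 5 higher and 6 lower (Nt5e 0.24, Ada -0.17), had an r of -0.58 with H2-Aa (rho -0.58, permutation p = 0.0464, adjusted p = 0.204). Crypt markers, 4 higher and 3 lower (Smoc2 0.44, Olfm4 0.25), had an r of -0.31 with H2-Aa over all mice, 0.61 within Zfp148gt/+ mice and -0.79 within controls, a difference that was not tested. No gene of these lists passed the adjusted test.

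**Figure D4:**
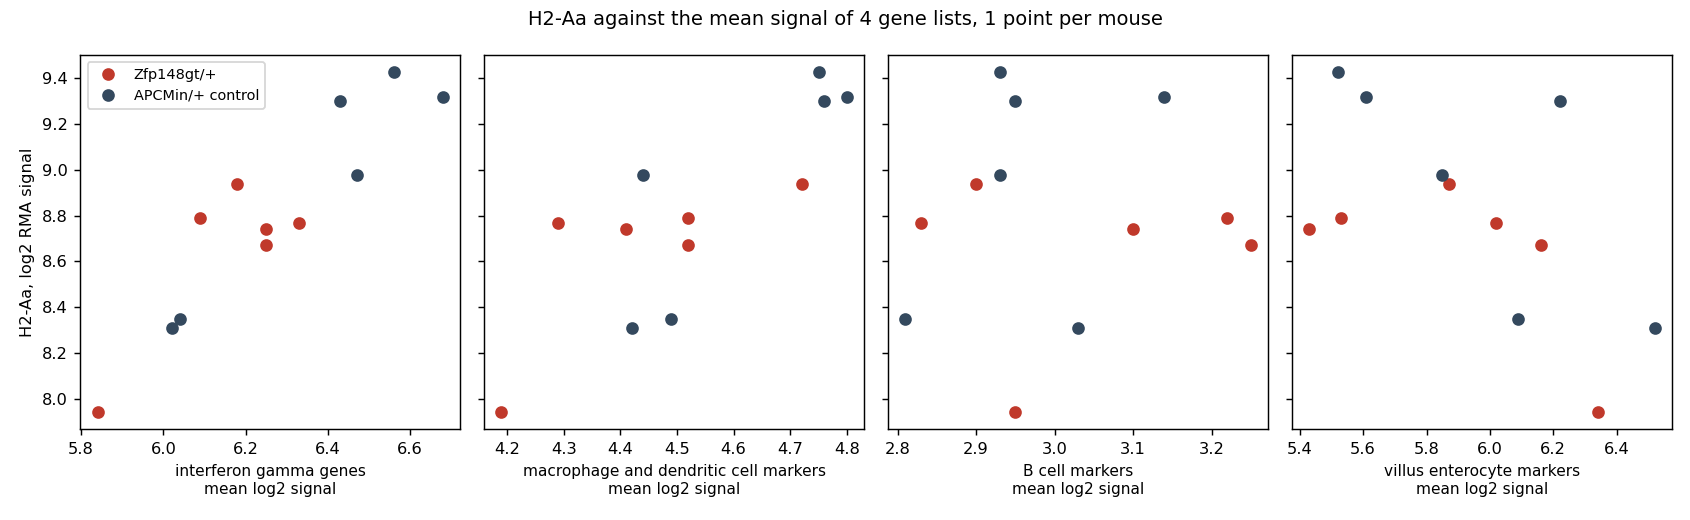
Log2 RMA signal of H2-Aa (vertical axis, not starting at 0) against the mean log2 signal of 4 gene lists (horizontal axes), 1 point per mouse, Zfp148gt/+ in red and APCMin/+ controls in blue. The points rise together for the interferon gamma genes (r = 0.92) and the macrophage and dendritic cell markers (r = 0.82). For the B cell markers, some of which are dim, r is 0.07, and for the villus enterocyte markers it is -0.58.

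The nearest genes were sought among 12839 genes with a signal above the median of all clusters, with the class II genes left out. After the mean of each genotype was subtracted, those closest to H2-Aa were Hes6 (r 0.91), Psmb9 (0.88), Capn5 (0.88), Retnlb (0.88) and Pla2g5 (0.88). By the same measure the class II genes H2-Ab1 (0.94) and H2-Eb1 (0.93) were closer to H2-Aa. Retnlb encodes the goblet cell protein RELM beta, and Psmb9 an interferon-induced immunoproteasome subunit. Of the genes searched, those closest to the shared cluster of Cd74 were Psmb9 (0.92), Tmem185a (0.89), 4930415O20Rik (0.87), Rpph1 (0.84) and Tlr2 (0.84), the last a receptor for bacterial lipoproteins. The class II gene H2-Eb1, left out of the search, had an r of 0.96 with the shared cluster. Psmb9, between H2-DMb1 and H2-Ob on chromosome 17, was the 1 gene in both sets of 5. Its mean was 9.36 ± 0.21 in Zfp148gt/+ mice and 9.66 ± 0.59 in controls (log2 signal, SD, n = 6 each), with a log2 fold change of -0.30 (-0.80 to 0.20). These r were the highest of many over the same 12 mice and are given without a test.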

How the data were processed

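Crypt-enriched RNA of 12 mice, 6 per genotype by the labels, was hybridised to 1 array per mouse; mice were treated as unpaired, because which were littermates is not stated. The authors normalized the arrays by RMA in Affymetrix Expression Console and deposited 1 log2 value per transcript cluster. No source states the log base, which was read from the values; versions of these tools and the build were not given in the sources used here. RMA evens out the distributions of the arrays, so changes shared by most genes cannot be seen. Array signal carries no sequencing depth, and the number of mice is only 1 of the things that set the precision of the comparison. Of 33793 clusters, 23521 carried 1 gene symbol, 1820 several and 8452 none, and 23328 of the named ones matched RefSeq gene IDs.

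Genotypes were compared with lmFit and eBayes of limma 3.58.1 (R 4.3.3), Benjamini-Hochberg adjustment over all clusters and a threshold of 0.05, without covariate or filter, and single genes by exact permutation over the 924 assignments of arrays. Correlations and their permutation p were computed with numpy 2.4.6, with ranks for rho from scipy 1.17.1. The fit was tested on simulated data. Members and 13 lists (126 entries, 118 measured, the members among them) were chosen with earlier results of these data known. Named were all members, Zfp148, per list the 2 genes of smallest unadjusted p where none passed, 5 nearest genes each, and fixed markers; H2-Ea, H2-DMb2, Xist and the RFX genes were added after their values were seen. List entries without a cluster of 1 symbol, such as Gbp2, H2-D1, Clec9a, Lck and Ddx3y, were not analysed here. Alternatives were other normalizations and fits, a filter on dim clusters, the methods' t-test, covariates and each mouse left out.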

Additional observations from a re-analysis of the deposited data

Results flagged for a closer look

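Single mice far from the 5 others of their genotype (gap to the nearest of them over 0.625 of the range) were found in 10 of 88 groups looked at. Chance alone gives about 1 in 20 for independent groups. These groups came from the same 12 arrays and held genes that varied together, so an excess cannot be read from the number. Zfp148gt/+ mouse 891 was lowest for 3 classical chain genes, with log2 signals of 7.94 for H2-Aa (others 8.67 to 8.94), 9.52 for H2-Ab1 (10.24 to 10.44) and 7.56 for H2-Eb1 (7.95 to 8.10). Zfp148gt/+ mouse 897 was highest for H2-Eb2 at 3.54 (others 1.71 to 2.33). Control 895 was highest for H2-Oa at 4.27 (others 3.42 to 3.68) and for the mean of the class II transcription factors at 5.55 (5.44 to 5.47). Control 782 was highest for H2-Ob at 2.32 (others 1.95 to 2.05). Outside the class II genes, Zfp148gt/+ mouse 783 was lowest for Itgax at 1.95, mouse 892 for Sdc1 at 7.16 and mouse 911 for Olfm4 at 10.35. The causes were not tested.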

How the results depend on the processing

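No class II gene passed under any alternative, the smallest adjusted p being 0.643. In 243 of 257 alternative values of the class II genes and the shared cluster the direction was kept, and in 14 it turned or reached 0. With the array interquartile range as a covariate the log2 fold change was 0.05 for H2-DMb1, 0.26 for Ciita, 0.29 for Sdc1 and 0.00 for Ada. With the macrophage and dendritic cell marker mean as a covariate it was 0.01 for H2-Aa, H2-Ab1, H2-DMb1 and H2-Oa, 0.03 for Ciita and 0.11 for the shared cluster, but -0.17 for H2-Eb1. With the epithelial marker mean as a covariate the values grew to -0.49 for H2-Aa, -0.41 for H2-Ab1 and -0.48 for H2-Eb1. Over the mice left out in turn, the lowest and highest values were -0.43 and -0.17 for H2-Aa, -0.39 and -0.11 for H2-Ab1, -0.41 and -0.09 for Ciita, -0.34 and 0.01 for H2-DMa, -0.24 and 0.13 for H2-DMb1, -0.15 and 0.02 for H2-Oa and -0.17 and 0.03 for the shared cluster; the turns came without control 895, and for the shared cluster also without 888 (0.00) or 899 (0.01). The median over the 9 genes lay between -0.34 and -0.07 with a mouse left out and between -0.26 and 0.01 otherwise. Over all clusters 0 passed, and 1 without control 885; the methods' t-test called 2263 unadjusted and 0 after Benjamini-Hochberg. The passing pairs numbered 16, 8 to 16 with a mouse left out (8 without 895, 10 without 885) and 13 to 17 otherwise; the passing list relations numbered 3, and 2 to 4 with a mouse left out. The causes were not tested. No paired analysis was possible because no source says which mice are littermates.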
